A study of Mus musculus with 4 samples.

Results

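The 8 genes described here encode the MHC class II antigen presentation apparatus of the mouse and its master regulator. H2-Aa, H2-Ab1 and H2-Eb1 encode chains of the class II molecule, Cd74 encodes the invariant chain, H2-DMa, H2-DMb1 and H2-DMb2 encode the chains of the peptide exchange factor H2-DM, and Ciita encodes the class II transactivator. They were taken by name from the 32272 genes of a joint nuclear RNA and open chromatin matrix, and all 8 were present once. The open chromatin peaks lying within 50 kb of the 8 genes were added, 119 of 174339 peaks: 74 around the 6 H2 genes, 20 around Cd74 and 25 around Ciita. The matrix came from Lin-cKit+ hematopoietic stem and progenitor cell (HSPC) nuclei of mouse bone marrow, profiled by 10x single-cell multiomics, which reads RNA and transposase-accessible DNA from the same nucleus. The labels give 2 groups, Ctrl and Lig, each with 1 RNA and 1 ATAC library. In the study these were 8-week-old male C57BL/6 mice without ligature, and mice of the same kind 14 days after a silk ligature had been placed to cause periodontitis, with the marrow of 5 mice pooled per group, so that no animal could be told from another. The barcodes of the pooled matrix ended in 1 or 2, no label tied either ending to Ctrl or Lig, and they are called library 1 and library 2, in no group. No comparison of ligature with control was made, no p-value is given, and every interval below is a 95% interval that covers counting error only.

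Class II molecules present peptides from endosomes to CD4+ T cells. The α and β chains assemble on the invariant chain, which blocks the peptide groove and is cut down by cathepsins to a fragment named CLIP. H2-DM then exchanges CLIP for antigenic peptide, and H2-DO, built from H2-Oa and H2-Ob, restrains H2-DM in some antigen-presenting cells. Transcription of these genes depends on CIITA, a coactivator that does not itself bind DNA and is held at the X and Y boxes of class II promoters by RFX, CREB and NF-Y. Ciita has alternative promoters, of which the first is known for dendritic cells and macrophages and the third for B cells. Dendritic cells and B cells carry class II constitutively, monocytes can be induced to do so, and hematopoietic progenitors carry little.

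The promoter sequences come first because class II genes are known to be regulated together through them. AAC and TGATTGG, simple forms of parts of the X and Y boxes, were searched as a pair. All promoter windows and peaks were searched whole and on both strands. For the class II promoters, only bases before the start on the gene's strand were searched, a narrower search than that of all windows. TGATTGG had to begin 26 to 30 bases after the first base of AAC. That range was chosen from these same class II promoters, so their matches are a description. The pair stood in 176 of 32851 RefSeq promoter windows of the same length (0.536%), whereas TGATTGG alone stood in 7.82%. Of the members with promoter entries, the pair was found for H2-Aa, H2-Eb1, H2-DMb1 and H2-DMb2 and in neither of the 2 H2-DMa windows, which do not cover the annotated starts farther along the gene. Stretches from 140 to 31 bases before the start are given 5′ to 3′ along each gene, from RefSeq on GRCm38.p6, with the pair in capitals: H2-Aa on the minus strand of chr17:34287854-34287963, H2-Eb1 on the plus strand of chr17:34305727-34305836 and H2-DMb2 on the plus strand of chr17:34145109-34145218.
H2-Aa: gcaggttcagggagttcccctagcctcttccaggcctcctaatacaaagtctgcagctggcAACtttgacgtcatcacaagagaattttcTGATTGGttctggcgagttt
H2-Eb1: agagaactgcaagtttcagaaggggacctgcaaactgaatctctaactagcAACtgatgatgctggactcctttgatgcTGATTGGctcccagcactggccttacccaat
H2-DMb2: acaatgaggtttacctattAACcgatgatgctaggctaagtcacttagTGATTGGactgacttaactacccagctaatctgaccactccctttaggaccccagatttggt
In these stretches AAC began at position -79 from the start of H2-Aa, -89 from that of H2-Eb1 and -121 from the inner start of H2-DMb2. The class II neighbours H2-Oa, H2-Ob and H2-Eb2 held the pair as well. Among the peaks, 1246 of 174282 held it (0.715%), against 10 of the 74 around the H2 genes (13.5%), 1 of the 25 around Ciita and 0 of the 20 around Cd74. Most of the 10 cover the class II promoters from which the range was chosen, so the H2 share restates that choice in part.

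The kept nuclei numbered 5905 in library 1 and 7714 in library 2, with 10294527 and 12537328 UMIs and 118239764 and 128699726 counts in peaks. Median UMIs per nucleus were 1641 and 1516.5, and median genes 636 and 410. Levels by library below are not corrected for this difference. The median gene was also lower in library 2, at a ratio of 0.646 over all nuclei. Joint clustering of RNA and ATAC, made without the class II genes and without peaks near them, gave 20 clusters, of which 12 could be named from markers and the other 8 are given by number. The cDCP-like nuclei (172; conventional dendritic cell progenitors) had 6 of 14 listed markers raised, among them Zbtb46, Wdfy4 and Ifi205, whereas Xcr1 and Clec10a were at 0. They also had 3 of 10 monocyte progenitor markers and 1 of 11 plasmacytoid dendritic cell markers raised. The mature B-like nuclei (271) carried Ms4a1 and Bank1, but Jchain and Igha, genes of plasma cells, were among their leading genes. They also had 8 of 13 pro-B cell markers raised (4574 against 856 UMIs per 1000000 UMIs, CPM, summed over the list), beside 6 of 9 of their own. The study's lineage cocktail includes B220, an antigen of B cells. Cluster 18 (107 nuclei) was led by Siglech and had 8 of 11 plasmacytoid dendritic cell markers and 4 of 12 NK and T cell markers raised, so it was left unnamed. Kit, the gene behind the cKit sort, stood at 42.3 CPM in cDCP-like, 34.9 in mature B-like and 18.4 in cMoP-like (common monocyte progenitor) nuclei, against 103 over all nuclei; cluster 18 had 102. Among the kept nuclei 72 barcode sequences occurred in both libraries, and without those 144 nuclei the class II RNA and accessibility folds of cDCP-like and mature B-like nuclei moved by less than their intervals.

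Transcripts of the chain genes Cd74, H2-Aa, H2-Ab1 and H2-Eb1 were concentrated in cDCP-like, mature B-like and cMoP-like nuclei and in the unnamed cluster 18. The 4 lineages cDCP-like, mature B-like, cluster 18 and cMoP-like held 5.13% of the nuclei and 3.86% of all UMIs, but 63.3% (59.5 to 67.0) of the 649 chain gene UMIs. Summed over the 4 genes, the level was 711 CPM (613 to 822) in cDCP-like, 524 (440 to 620) in mature B-like, 375 (283 to 488) in cluster 18 and 166 (116 to 229) in cMoP-like nuclei. LMPP-like nuclei (lymphoid-primed multipotent progenitors) followed with 31.3 (23.4 to 41.1), and the remaining lineages lay between 3.83 in cluster 6 and 23.9. In this order the intervals of cDCP-like and mature B-like nuclei overlapped, as did those of mature B-like nuclei and cluster 18, while cluster 18 and cMoP-like, and cMoP-like and LMPP-like, did not. When the clustering was not corrected between libraries, 80 nuclei were called pDCP-like, 77 of them also in cluster 18, and their chain gene level was 526 CPM, with 632 in library 1 and 328 in library 2.

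**Figure D1:**
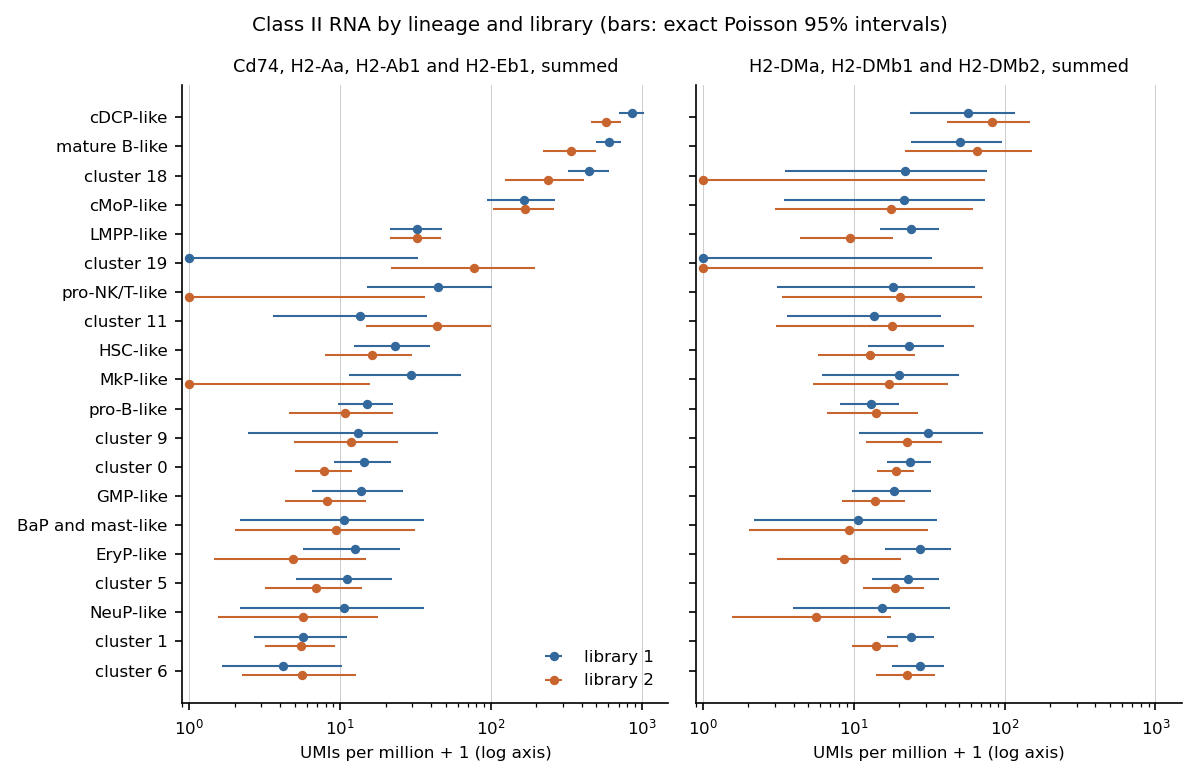
UMIs per 1000000 UMIs (CPM), plus 1, on a log axis, summed over each gene set, of the 4 chain genes (Cd74, H2-Aa, H2-Ab1, H2-Eb1) and of the 3 H2-DM genes in each lineage; points are the 2 libraries and bars exact Poisson 95% intervals. The chain genes fall from 711 CPM in cDCP-like to 31.3 in LMPP-like nuclei over both libraries, whereas the H2-DM genes stay between 0 and 69.2.

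Each chain gene was highest in cDCP-like nuclei. Cd74 (chr18:60803848-60812652 on GRCm38, plus strand) stood at 408 CPM in library 1 and 222 in library 2 there, and at 344 and 129 in mature B-like nuclei. Both libraries thus put both lineages above the 9.17 CPM of all nuclei outside the cDCP-like lineage, and the pooled folds over the remaining nuclei were 30.7 and 26.6 (each with a pseudocount of 1 CPM). H2-Aa, the I-A α chain (chr17:34282744-34287823, minus strand), had 224 and 148 CPM in cDCP-like nuclei, 35.6-fold above the rest, and was 13.6-fold above the rest in mature B-like nuclei. H2-Ab1, its β partner (chr17:34257689-34269419, plus strand), had 168 and 88.9 CPM in cDCP-like nuclei (19.3-fold) and was 16-fold higher in mature B-like nuclei. H2-Eb1, the I-E β chain (chr17:34305867-34316674, plus strand), rested on 23 UMIs in cDCP-like nuclei, 56.0 CPM in library 1 and 118 in library 2, 35.1-fold above the rest. It was the only chain gene with its higher cDCP-like value in library 2.

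Of the 8 members, 5 reached the 100 UMIs set for counting. Of these, 4 were more than 4-fold higher in their highest lineage than in the remaining nuclei, where 11.4% of 8825 genes were. The background was 1.09% for cDCP-like nuclei, in which Cd74, H2-Aa, H2-Ab1 and H2-DMb1 passed, and 2.11% for mature B-like nuclei. H2-DMa was the tested member that did not pass. The median fold of the 5 was 19.3, against 2.16 over all genes tested. H2-Eb1 (58 UMIs), Ciita (61) and H2-DMb2 (32) were below the minimum, and each was over 4-fold without it, where 17.8% of 12901 genes with 20 or more UMIs were. H2-Aa had 143 UMIs, 48 of them in cDCP-like nuclei, and so reached the minimum only with the lineage in which it was high. The count of members is therefore a description and no support for a difference from other genes.

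**Figure D2:**
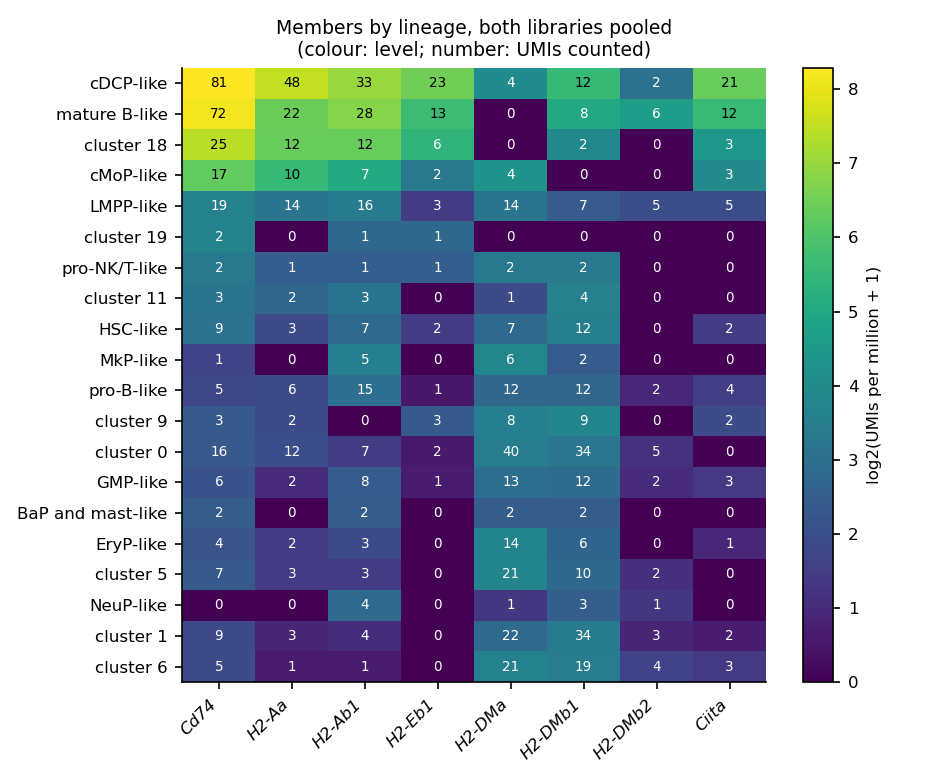
Log2 of CPM plus 1 for each of the 8 genes (columns) in each lineage (rows), both libraries pooled; the number in a cell is its UMI count. Cd74, H2-Aa, H2-Ab1, H2-Eb1 and Ciita share their high rows, while H2-DMa is spread over the lineages and has 0 UMIs in mature B-like nuclei and cluster 18.

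Ciita RNA (chr16:10480059-10528418, plus strand) was scarce, with 61 UMIs in all, and 63.9% of them fell in the same 4 lineages. cDCP-like nuclei held 21 UMIs, 80.8 CPM (49.99 to 123), with 56.0 CPM in library 1 and 104 in library 2. Mature B-like nuclei held 12 UMIs, 46.6 CPM (24.1 to 81.4), with 44.4 and 51.7 CPM. These were 29.5-fold and 15.0-fold above the remaining nuclei, and the intervals of both lineages overlapped. In cluster 0, with the most nuclei (2287), no Ciita UMI was found, and the limit that a count of 0 allows, taken as 3 counts, is 0.753 CPM.

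Across 40 points, 20 lineages in each of 2 libraries, the chain genes followed each other with Pearson r between 0.755 and 0.879 on log2(CPM + 1), and each followed Ciita with r between 0.728 and 0.858. H2-DMa did not move with them, with r between -0.257 and -0.004 against the other members. The points share libraries and differ in depth, and these coefficients are a description.

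H2-DM genes were spread more evenly than the chains that H2-DM acts on. H2-DMa (chr17:34119541-34139101, plus strand, an interval that also overlaps Brd2) had 192 UMIs, of which 4.17% lay in the 4 lineages with high chain levels. It had 4 UMIs in cDCP-like nuclei, 0 in mature B-like nuclei, where the same limit of 3 counts is 11.6 CPM, and 14 in EryP-like (erythroid progenitor) nuclei at 12.4 CPM (6.79 to 20.8). Its highest lineage was cMoP-like, with 4 UMIs and a fold of 2.08 (0.597 to 5.76 without the pseudocount), an interval that spans 1. H2-DMb1 (chr17:34153072-34160230) was 5.31-fold higher in cDCP-like nuclei, on 12 UMIs, and 3.54-fold in mature B-like nuclei, on 8. H2-DMb2 (chr17:34143307-34151555) was 11.3-fold higher in mature B-like nuclei, on 6 UMIs, and 3.73-fold in cDCP-like nuclei, on 2. The H2-DMb genes are near-identical neighbours, so the split of reads between them is uncertain. Summed, the H2-DM genes reached 69.2 CPM (41.0 to 109) in cDCP-like and 54.4 (29.7 to 91.2) in mature B-like nuclei, against 18.1 over all nuclei, and no pair of neighbours in the order of lineages had separate intervals.

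The share of H2-DM UMIs among chain and H2-DM UMIs together ranged widely between lineages. It was 8.87% (5.34 to 13.7) in cDCP-like, 9.40% (5.23 to 15.3) in mature B-like and 10.0% (2.79 to 23.7) in cMoP-like nuclei, and 3.51% (0.428 to 12.1) in cluster 18. LMPP-like nuclei had 33.3% (23.1 to 44.9) and EryP-like nuclei 69.0% (49.2 to 84.7). Clusters 1 and 6 had 78.7% (67.7 to 87.3) and 86.3% (73.7 to 94.3). The UMIs are not corrected for gene length, so the shares compare lineages and not genes.

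Within a lineage, class II UMIs were found in some nuclei only, and at this depth a nucleus without one may still hold the RNA. With every nucleus thinned to 1000 UMIs, 65 of 138 cDCP-like nuclei held a UMI of a member (47.1%, 38.6 to 55.8), with 47.7% in library 1 and 46.6% in library 2, and 34 shallower nuclei were left out. Mature B-like nuclei had 22 of 92 (23.9%, 15.6 to 33.9), with 179 left out, and 28.8% in library 1 against 11.5% (3 of 26 nuclei) in library 2. Cluster 18 had 18.9%, with 22.0% and 12.5%. The cMoP-like share was 8.26%. EryP-like nuclei, which should lack class II, had 3.04%, and for the chain genes alone 1.07% (0.395 to 2.32). The former takes in the H2-DM genes, found in 1.79% of EryP-like nuclei. For the chain genes, cluster 6 (0.451%) and cluster 1 (0.526%) lay lower, so EryP-like nuclei are a comparison and not a measured background. Without thinning, the cDCP-like and mature B-like shares were 49.4% and 28.8%. Thinned to 500 UMIs, which left out only 3 and 12 nuclei, they were 26.04% (19.6 to 33.3) and 23.9% (18.9 to 29.6), with overlapping intervals. For the chain genes alone, thinned to 500 UMIs in a separate random draw, the shares were 27.2% (20.7 to 34.6) and 16.6% (12.3 to 21.7). The nuclei compared differ between the depths as well, so depth and choice of nuclei cannot be told apart.

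Several chain genes were often read in the same nucleus. At least 2 of the 4 were found in 82 of the 413 nuclei with any chain gene UMI. Of these 82, 37 were cDCP-like (21.5% of that lineage), 21 mature B-like, 12 in cluster 18 and 6 cMoP-like. LMPP-like nuclei gave 4, pro-B-like nuclei 1 and cluster 9 1, and the remaining 13 lineages gave 0. A cDCP-like nucleus held the most chain gene UMIs, 13.

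Next in order came LMPP-like nuclei, whose interval overlapped those of several other lineages. Their chain gene level was 31.4 CPM (20.5 to 46.1) in library 1 and 31.2 (20.4 to 45.7) in library 2. EryP-like nuclei had 11.6 (4.65 to 23.8) and 3.83 (0.464 to 13.8), so the intervals overlapped in library 1 and not in library 2. HSC-like nuclei had 18.5 CPM over both libraries (11.5 to 28.3), which overlapped the LMPP-like interval of 23.4 to 41.1. Thinned to 1000 UMIs, 3.10% of LMPP-like nuclei (2.05 to 4.48) had a chain gene UMI, beside 1.07% of EryP-like, 2.12% (1.13 to 3.60) of HSC-like and 2.97% (0.617 to 8.44) of pro-NK/T-like nuclei and 3.85% (1.06 to 9.56) of cluster 11, with overlapping intervals. pro-B-like nuclei, although of the B lineage, had 12.8 CPM (8.42 to 18.6), an interval that overlapped that of EryP-like nuclei.

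The class II levels of the 2 libraries are set beside the median gene, since other genes differed between them as well. Over all nuclei the ratio of library 2 to library 1 was 0.597 (0.529 to 0.673), beside a median ratio of 0.646 over 10614 genes. Within cDCP-like nuclei the ratio of the members was 0.788 (0.5999 to 1.03) beside a median gene of 0.761. The chain genes alone had 0.675 (0.497 to 0.912) there, and the H2-DM genes 1.45 (0.515 to 4.43). Within mature B-like nuclei the chain genes had 0.555 (0.347 to 0.858) and the H2-DM genes 1.29 (0.340 to 4.29). The ratio of the members there was 0.646 (0.431 to 0.946) beside 0.966. It was 0.851 (0.568 to 1.25) without the genes at the 45S rRNA locus and 0.880 (0.587 to 1.29) with median-of-ratios scaling, intervals that include 1. With a minimum of 500 genes per nucleus it was 0.293 (0.0588 to 0.896). Within cluster 18 it was 0.526 (0.261 to 0.987) beside 1.16, with 13 member UMIs in library 2. These medians rest on far fewer genes than that of all nuclei: 336 in cDCP-like nuclei, 162 in mature B-like nuclei and 92 in cluster 18. In cDCP-like nuclei the direction turned to 1.07 when the libraries were scaled by median-of-ratios factors. In cMoP-like nuclei the ratio was 1.04. Since the libraries belong to no group here, these ratios compare 1 library with 1 other.

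Accessibility around the class II genes was first summed over the 119 peaks, which include peaks of neighbouring genes, so that selective peaks are averaged with others. By this sum cDCP-like nuclei had 1808 ATAC counts per 1000000 counts in all peaks (CPM; 1739 to 1880), 1.65-fold above the remaining nuclei, with 1780 in library 1 and 1838 in library 2. Mature B-like nuclei had 1557 (1.42-fold), cluster 18 1361 (1.24-fold) and cMoP-like nuclei 1302 (1.18-fold), and the other lineages lay between 0.86-fold and 1.13-fold. The order of these 4 lineages was that of the chain gene RNA. The Ciita locus had the widest range, from 182 CPM and 1.94-fold in cDCP-like nuclei to 0.319-fold in NeuP-like nuclei (neutrophil progenitors). At the Cd74 locus, cDCP-like nuclei reached 1.80-fold and mature B-like nuclei 1.63-fold, and at the H2 genes 1.57-fold and 1.33-fold.

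**Figure D3:**
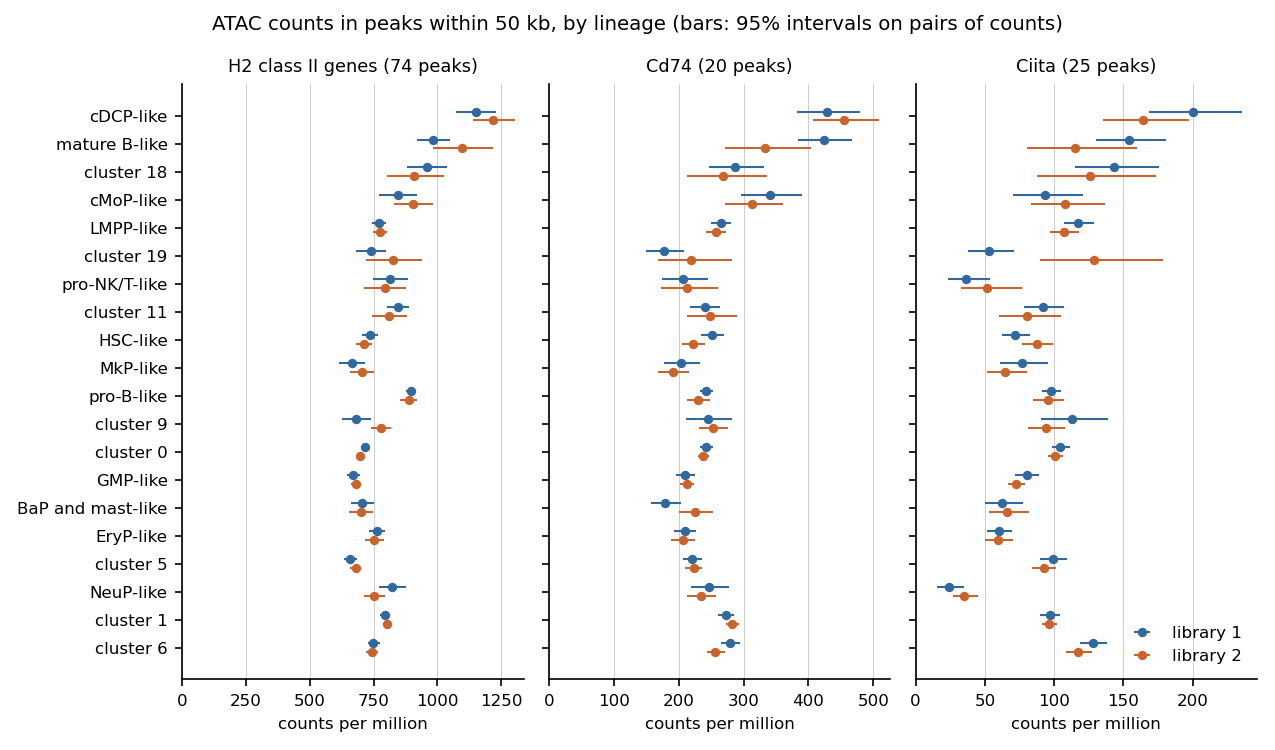
ATAC counts per 1000000 counts in all peaks (CPM), summed over the peaks within 50 kb of the H2 genes (74), Cd74 (20) and Ciita (25), by lineage; points are the 2 libraries and bars Poisson 95% intervals on pairs of counts. cDCP-like nuclei are highest at each locus, at 1184, 442 and 182 CPM over both libraries.

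Single peaks were then taken one by one. Of the 119 peaks, 22 (18.5%) were over 4-fold in their highest lineage, beside 15.7% of 158601 peaks tested, so the share lay near that of all peaks, and the median fold was 2.25 beside 2.27. The highest lineage was cDCP-like for 38 of the 119 (31.9%), against 8.60% of all peaks, and mature B-like for 17 (14.3%), against 5.08%. Over 4-fold in cDCP-like nuclei were 10 of the 119, beside 1.83% of all peaks, in mature B-like nuclei 10, beside 1.57%, and in pro-B-like nuclei 3, beside 3% (a peak can count in more than 1 lineage).

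At the H2 genes the strongest cDCP-like element lay between H2-Aa and H2-Eb1. The peak chr17:34293260-34294178 had 81.3 CPM in library 1 and 76.6 in library 2 in cDCP-like nuclei, against 14.0 in the rest, a fold of 5.63. LMPP-like nuclei came second by fold (34.3 CPM, 2.56-fold), and cluster 18 and mature B-like nuclei had 31.0 and 30.8 CPM. It holds GAGGAAGT, a PU.1-like word found on either strand in 13.7% of all peaks. Of the member peaks over 4-fold, 1 of the 8 highest in cDCP-like nuclei and 1 of the 7 highest in mature B-like nuclei held this word. The stretch around it, chr17:34293608-34293727 on the minus strand of GRCm38.p6, is shown as the element that separates cDCP-like nuclei most at this locus by level, with the word in capitals.
Peak between H2-Aa and H2-Eb1: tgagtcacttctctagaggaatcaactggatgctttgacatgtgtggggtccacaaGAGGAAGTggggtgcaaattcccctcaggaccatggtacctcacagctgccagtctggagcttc
A neighbouring peak, chr17:34300745-34301651, was instead a mature B-like element, with 21.3 CPM and a fold of 11.2 (24.2 CPM in library 1 and 12.8 in library 2). That peak holds GAGGAAGT as well.

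The peaks over the main starts of H2-Aa, H2-Eb1 and H2-Ab1 were highest in cDCP-like nuclei. The H2-Aa start peak (chr17:34287489-34288376) had 32.2 CPM in cDCP-like nuclei, 3.30-fold above the rest, with 23.6 in library 1 and 41.2 in library 2, and 27.2 CPM in cluster 18. The H2-Eb1 start peak had 29.4 CPM (2.86-fold) and the peak at the inner H2-Ab1 start 25.9 CPM (1.89-fold) in cDCP-like nuclei. The peak chr17:34304458-34305184, within 1 kb of the main H2-Eb1 start but not over it, was highest in pro-NK/T-like nuclei, at 2.01-fold. Peaks near other annotated starts of H2-Eb1 were highest at 3.02-fold in pro-NK/T-like nuclei and 2.17-fold in cMoP-like nuclei. Within H2-Ab1, a peak at chr17:34261267-34262156, 2.98-fold higher in cDCP-like nuclei, also held the AAC and TGATTGG pair. It is shown from chr17:34261643-34261762 on the minus strand, with the pair in capitals, because its spacing resembles that of the promoters printed above. The peak lies before the inner start at chr17:34263209-34263250 and is inside the gene only by an outer annotated start. The peak at the inner start does not hold the pair.
Peak within H2-Ab1: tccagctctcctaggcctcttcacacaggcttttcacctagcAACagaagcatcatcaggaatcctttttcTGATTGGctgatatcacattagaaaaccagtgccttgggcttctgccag

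Cd74, at its start peak (chr18:60803242-60804083), had 57.4 CPM in cDCP-like nuclei (3.96-fold; 59.0 and 55.6 by library) and 53.0 in mature B-like nuclei (3.63-fold; 60.4 and 30.4). The next start peak of Cd74 was highest in mature B-like nuclei, at 2.30-fold. Farther from the gene some peaks were higher in 1 of these lineages than in the other. The peaks chr18:60796655-60797584 and chr18:60834331-60835227, the latter in Tcof1, were 6.61-fold and 7.54-fold higher in cDCP-like nuclei, on 29 and 43 counts. Mature B-like nuclei had 1.44-fold and 1.09-fold there, on 6 counts at each. The peaks chr18:60791702-60792536 and chr18:60830549-60831472 were 5.12-fold and 4.53-fold higher in mature B-like nuclei. They were also raised in cDCP-like nuclei, at 2.01-fold and 2.25-fold. At chr18:60830549-60831472 LMPP-like and HSC-like nuclei had 2.73-fold and 2.59-fold.

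At the H2-DM genes the start peaks were highest in several lineages. The 3 H2-DMa start peaks were highest at folds of 1.99 and 1.35 in cluster 19 and 1.47 in cDCP-like nuclei, beside the evenly spread RNA of H2-DMa. Both start peaks of H2-DMb1 were highest in cDCP-like nuclei, at 2.51-fold and 2.28-fold, and the former held the AAC and TGATTGG pair. At H2-DMb2 the outer start peak (chr17:34142743-34143759) had 50.3 CPM in cDCP-like nuclei (1.72-fold), whereas the inner start peak (chr17:34144657-34145492), which holds the H2-DMb2 stretch printed above, was a B lineage element. It was 7.40-fold higher in pro-B-like nuclei (23.3 CPM) and 5.45-fold in mature B-like nuclei (26.1 CPM), with 6.29 CPM in LMPP-like nuclei. The unnamed cluster 11 was 6.05-fold higher there (27.6 CPM). At H2-Eb2, a class II gene next to H2-Eb1, the peak chr17:34326312-34327043 was likewise 13.3-fold higher in pro-B-like nuclei. Accessibility at these elements thus stood high in pro-B-like nuclei. The chain gene level of 12.8 CPM in these nuclei is that of other genes. RNA of H2-DMb2 (32 UMIs over all nuclei) and H2-Eb2 (11 UMIs) was too scarce to set beside the accessibility.

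The Ciita peaks parted the class II lineages by start site. At the first annotated start (chr16:10479614-10480488), cDCP-like nuclei had 20.2 CPM, 8.77-fold above the rest (5.74 to 12.9), with 26.4 in library 1 and 13.7 in library 2. cMoP-like nuclei had 9.81 CPM there (4.03-fold; 9.23 and 10.4 by library), and mature B-like, pro-B-like and HSC-like nuclei had 1.58, 0.393 and 0.602. The first start was thus accessible in cDCP-like and cMoP-like nuclei and had few counts in B lineages. At the second annotated start (chr16:10487585-10488462), cluster 18 was highest at 32.1 CPM (3.69-fold, 2.47 to 5.31; 36.3 and 22.7 by library), followed by mature B-like nuclei at 19.4 and cDCP-like nuclei at 13.5. At the third annotated start (chr16:10489124-10490007) the lineages lay close together, with 10.3 CPM in cDCP-like (1.86-fold, 1.02 to 3.11), 7.81 in pro-B-like, 7.07 in cluster 18, 6.33 in mature B-like and 5.51 in HSC-like nuclei. The starts are numbered in the order of the annotation, whose match to promoter names in other work was not tested.

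**Figure D4:**
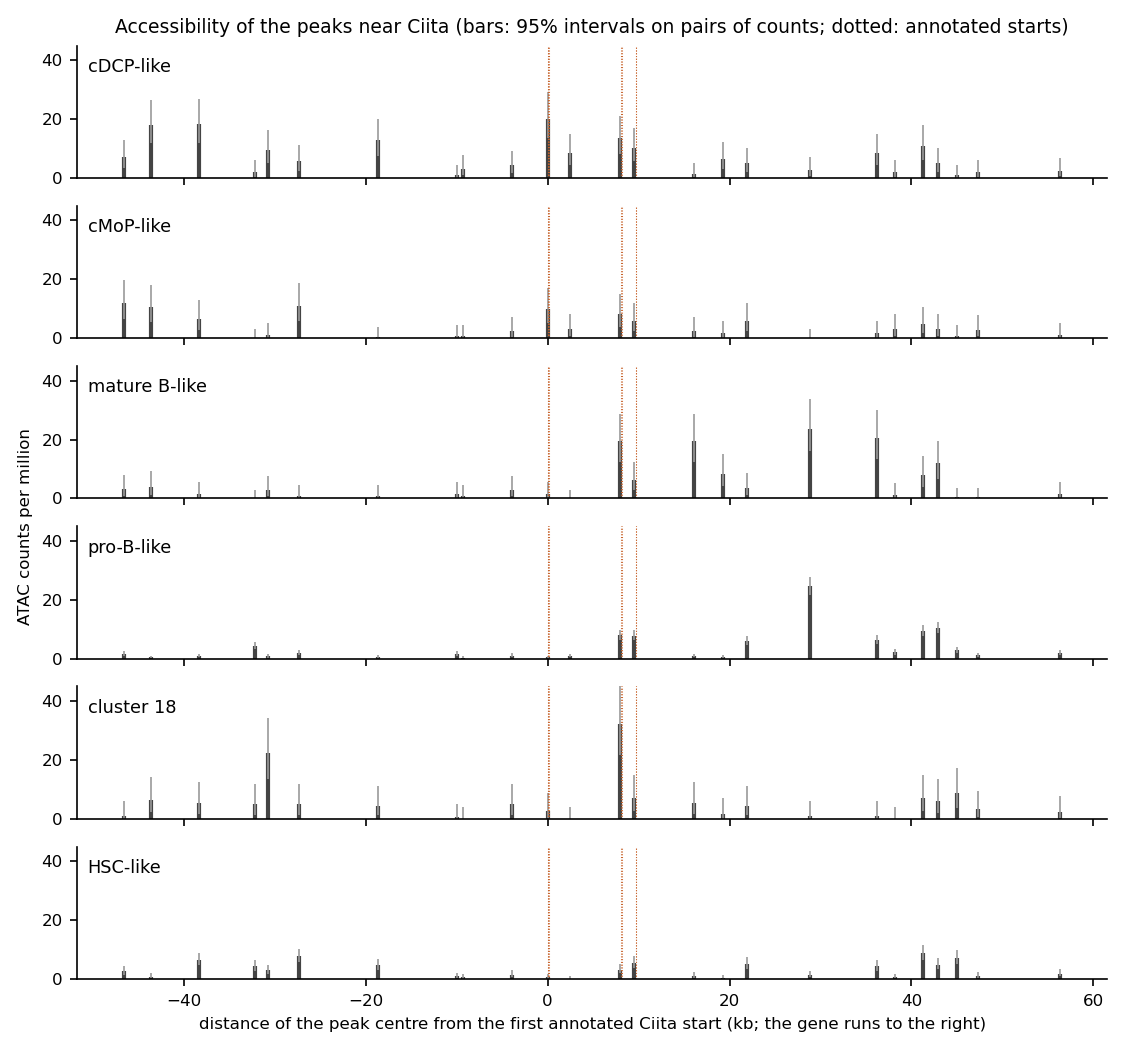
ATAC counts per 1000000 counts in all peaks (CPM) at each peak within 50 kb of Ciita against its distance in kb from the first annotated start, in 6 lineages; dotted lines mark annotated starts. The first start reaches 20.2 CPM in cDCP-like and 9.81 in cMoP-like nuclei, the second 32.1 in cluster 18, and a peak inside the gene 24.6 in pro-B-like and 23.7 in mature B-like nuclei.

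Of the other peaks inside Ciita, some were highest in B lineages and some in cDCP-like nuclei, as was chr16:10482099-10482896 at 5.68-fold. In the B lineages, the peak chr16:10508470-10509333, where Dexi is also annotated, was 14.2-fold higher in pro-B-like nuclei (24.6 CPM) and 6.51-fold in mature B-like nuclei (23.7 CPM; 28.4 and 9.60 by library). The unnamed cluster 11 was 7.96-fold higher there (27.0 CPM), while cDCP-like nuclei had 2.83 CPM and cMoP-like nuclei 0. The peak chr16:10495753-10496656 differed between the B lineages, with 19.4 CPM in mature B-like nuclei (10.3-fold; 20.5 and 16 by library) and 0.960 in pro-B-like nuclei. The peak at chr16:10508470-10509333 holds CCCNNGGG, an EBF1-like word found in 23.0% of all peaks and in 2 of the 3 member peaks over 4-fold that were highest in pro-B-like nuclei. Its stretch is shown from chr16:10508771-10508890 on the plus strand, with the word in capitals, as the Ciita element that sets pro-B-like and mature B-like apart from dendritic and monocyte nuclei.
Peak within Ciita: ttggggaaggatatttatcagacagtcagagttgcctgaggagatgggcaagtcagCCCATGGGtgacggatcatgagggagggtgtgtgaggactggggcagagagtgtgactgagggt
In all, 8 of the 25 Ciita peaks were over 4-fold in their highest lineage (32.0%), 4 of 20 at Cd74 (20%) and 10 of 74 at the H2 genes (13.5%), beside 15.7% of all peaks. The Cd74 and H2 shares lie near that, and the Ciita share rests on too few peaks to tell from it.

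Accessibility was compared between nuclei of a lineage with and without a member UMI. cDCP-like nuclei with a member UMI (85) had 1.18 times (1.09 to 1.28) the ATAC CPM at the 119 peaks of those without (87), with 1.22 in library 1 and 1.14 in library 2. The ratio was 1.39 (1.27 to 1.53) in mature B-like nuclei, 78 with and 193 without, with 1.38 and 1.44 by library. It was 1.26 (1.12 to 1.41) in cluster 18 and 1.39 (1.22 to 1.58) in cMoP-like nuclei. In the remaining 16 lineages it was 1.04 (1.02 to 1.07). Depth differed in both directions: nuclei with a UMI had a median of 8206.5 counts in peaks against 6387 in mature B-like nuclei, 18896 against 15042.5 in cluster 18 and 16781.5 against 14859 in cMoP-like nuclei, but 14068 against 17174 in cDCP-like nuclei. The part of this in the ratios was not tested. For the chain genes alone, the ratio in the remaining lineages was 1.03 (0.987 to 1.07), an interval that includes 1. For the H2-DM genes alone it was 1.01 (0.883 to 1.14) in cDCP-like nuclei, with 1.12 and 0.891 by library, 1.37 (1.12 to 1.65) in mature B-like nuclei and 1.05 (1.02 to 1.09) in the remaining lineages.

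The other genes of the pathway were taken from a list of 42, of which 41 were in the matrix and 33 had 100 UMIs. Of the 33, 13 were over 4-fold in their highest lineage, beside 11.4% of all genes, and their median fold was 2.82 beside 2.16. Among the class II neighbours only H2-Ob could be tested, and it was 5.71-fold higher in mature B-like nuclei, on 10 UMIs, and 4.62-fold in LMPP-like nuclei. H2-Oa had 21 UMIs and H2-Eb2 11.

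Of the genes that supply peptides, 5 of 7 were over 4-fold in their highest lineage, beside 11.4% of all genes. Lgmn, with 105 UMIs of which 7 were in cMoP-like nuclei, reached the minimum only with the lineage in which it was high. Ctss, the cathepsin that makes the final cuts in the invariant chain, was 6.48-fold higher in cMoP-like nuclei, 5.17-fold in cluster 18 and 4.02-fold in cDCP-like nuclei. Lgmn, an endosomal protease, was 6.22-fold higher in cMoP-like nuclei. Ifi30, a thiol reductase of endosomes, was 6.71-fold higher in cDCP-like and 6.18-fold in mature B-like nuclei, and Cst3, a cathepsin inhibitor typical of dendritic cells, reached 388 CPM in cDCP-like nuclei (6.40-fold). Ctsb was 4.12-fold higher in cluster 18. Of the surface turnover and costimulation genes, March1, a ubiquitin ligase that removes class II from the surface, was 27.9-fold higher in cDCP-like nuclei (52 UMIs, 199.97 CPM) and 15.1-fold in cMoP-like nuclei. Cd86 was 6.29-fold higher in cMoP-like nuclei (11 UMIs), 4.33-fold in mature B-like and 4.29-fold in cDCP-like nuclei (9 UMIs each).

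Of the factors that hold CIITA at class II promoters, 0 of 5 tested were over 4-fold, beside the same 11.4% of all genes, from which so few genes cannot be told apart. Rfx5, the large RFX subunit, was at most 2.14-fold higher in any lineage, and Creb1 had the most UMIs of the group, 1787. Of the known regulators of Ciita itself, 5 of 8 were. Irf8, needed for dendritic cells and monocytes, was 6.69-fold higher in cluster 18 (689 CPM) and 5.01-fold in cDCP-like nuclei. Irf4 was 25.7-fold higher in mature B-like nuclei and had 0 UMIs in cDCP-like nuclei. Pax5 and Ebf1, factors of B cell commitment, were 15.5-fold and 18.7-fold higher in pro-B-like nuclei, and Pax5 was 12.9-fold higher in mature B-like nuclei. Bcl6 was 4.34-fold higher in cDCP-like nuclei.

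MHC class I genes, which present peptides from the cytosol in most cells, were listed beside them. Of 9, 0 were over 4-fold in any lineage, beside 11.4% of all genes, a count too small to tell from that share. B2m was 1.97-fold, H2-K1 2.19-fold and H2-D1 1.98-fold higher in their highest lineages, and the peptide transporter and loading genes Tap1, Tap2 and Tapbp 2.05-fold, 1.998-fold and 1.89-fold. The immunoproteasome genes Psmb8 and Psmb9 reached 1.96-fold and 2.11-fold, and Nlrc5, the class I counterpart of Ciita, 3.19-fold. In cDCP-like nuclei the median fold of the 9 was 1.15.

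The genes whose pattern was closest to that of the summed members were found across the same 40 points, among 8820 genes with 100 UMIs. Among the 10 with the highest Pearson r were Myo9a (0.711), Ddi2 (0.705), Plekho1 (0.667), Plekhm3 (0.666), Ncoa3 (0.664), Vrk2 (0.656), St8sia4 (0.650), Actr3 (0.644) and Slc44a2 (0.642). By Spearman rank correlation 6 of the 10 were again among the top 10. The coefficients describe points that share 2 libraries and differ in depth.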

How the data were processed

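The deposited matrix held counts that the authors made with Cell Ranger ARC 2.0.0 on GRCm38 (mm10): UMIs per gene and transposase cut counts per peak, in nuclei of all samples pooled. The submitters' processing notes also name Seurat 4.0.3 and Signac 1.3.0. Nuclei with at least 200 genes and 1000 to 50000 peak counts were kept, 13619 of 18961. The matrix held 0 mitochondrial genes, and 82.5% of peak entries were even, so ATAC intervals used pairs of counts. RNA (30 principal components) and ATAC (LSI components 2 to 30) were clustered together at resolution 0.8 in Seurat 5.3.0 (R 4.3.3), without the class II genes and peaks. Clusters were named from marker lists. The members and all lists were chosen with earlier results of these data known.

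Counts were summed per lineage and library in Python 3.11.15 (numpy 2.4.6, scipy 1.17.1, pandas 2.3.3) and given per 1000000 counts of the same kind (CPM). Intervals were exact Poisson for levels, Clopper-Pearson for shares and conditional binomial for ratios. They treat UMIs as independent. Folds compared a lineage with all remaining nuclei, with a pseudocount of 1 CPM for RNA, for genes with at least 100 UMIs and peaks with at least 200 counts. The sums were tested on simulated data. Scrublet called 3 nuclei (0.0220%) and so had not worked as a doublet caller, and no nucleus was removed for it. An alternative left out the 1031 nuclei with the highest scores. Named were all members, pathway genes over 4-fold, with the most UMIs of their role or of class I, the 10 genes of closest pattern (1 of which is not reported here), and peaks at member starts, with the most counts or over 4-fold. Gene intervals and starts came from GENCODE vM21, and sequences from RefSeq on GRCm38.p6. With 2 libraries in no group, no test was run.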

Additional observations from a re-analysis of the deposited data

How the results depend on the processing

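Of 68 alternative values, 51 stayed close to the reported value (within its interval or, for counts of genes, near the count), 16 moved and 1 turned direction. The RNA fold of the summed members was 21.6 in cDCP-like and 14.7 in mature B-like nuclei. It was 18.6 in library 1 alone and 25.6 in library 2 alone for cDCP-like nuclei, 17.9 and 10.4 for the same lineages without Cd74, and 19.6 for mature B-like nuclei with a minimum of 500 genes per nucleus. The accessibility fold was 1.65 and 1.42. It was 1.57 in cDCP-like nuclei with the limits applied to halved counts, 1.88 and 1.52 for peaks within 10 kb, and, in mature B-like nuclei, 1.49 for peaks within 1 kb of a member start and 1.22 when scaled to counts in promoter peaks. The share of cDCP-like nuclei with a member UMI, 47.1%, was 26.04% when nuclei were thinned to 500 UMIs, beside 23.9% of mature B-like nuclei, and 27.2% and 16.6% for the chain genes alone. The lower depth takes in more nuclei than 1000 UMIs. With a minimum of 20 UMIs, or none, 7 of 8 members were over 4-fold, beside 17.8% and 19.2% of the genes with that minimum. The reported count was 4 of 5. With a pseudocount of 10 CPM 3 of 5 were over 4-fold, H2-DMb1 being the one lost. The share of all genes at that pseudocount was not computed, so this count has no background. The ratio of library 2 to library 1 in cDCP-like nuclei, 0.788, was 1.07 with median-of-ratios scaling, and that in mature B-like nuclei, 0.646, was 0.293 with a minimum of 500 genes. The ratio of accessibility between mature B-like nuclei with and without a member UMI, 1.39, was 1.61 for a minimum of 3 UMIs. Of the 10 genes of closest pattern, 6 remained by Spearman correlation. The causes of these shifts were not tested. The alternatives with 1 library alone and without shared barcode sequences were chosen after seeing the data.

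No paired analysis was possible because the pooled matrix carries no replicate numbers and no result comes from a test. Most member values rest on few UMIs, so levels in lineages outside the 4 high ones were limited by depth. With 1 library per group and 5 mice pooled in each, the spread between animals is unknown.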
